A study of Mus musculus with 12 samples.

Results

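The MEF2 transcription factors, the class IIa histone deacetylases (HDACs) and serum response factor (SRF) were followed here as a single regulatory circuit of the heart. The 9 genes were taken by symbol from the table of gene counts: the 4 MEF2 factors Mef2a, Mef2b, Mef2c and Mef2d, the 4 class IIa HDACs Hdac4, Hdac5, Hdac7 and Hdac9, and Srf. All 9 were found among the 51826 entries. They were tested in each comparison.

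The libraries came from atria and ventricles of female FvB mice, 10 weeks of age. CUG960 +dox mice carried TREDT960I(H), a tetracycline-responsive transgene with 960 interrupted CUG repeats in human DMPK sequence, together with MHCrtTA(hemi), and MHCrtTA +dox controls carried MHCrtTA(hemi) alone. All mice received doxycycline (dox) from PN1, that is, postnatal day 1, so that the transactivator and dox were shared by both groups. The αMHC promoter of MHCrtTA restricts the transactivator to cardiomyocytes, the RNA was from whole chambers, and the controls came from a separate cross to wild-type FVB mice, so that the groups were not littermates. The comparison asks how these genes differed between CUG960 +dox mice and controls in each chamber. Repeat RNA, the rest of the transgene and the cross cannot be told apart, because the controls lacked the transgene. There were 3 mice per group: V119, V120 and V123 for CUG960 +dox and V327, V333 and V334 for controls.

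MEF2 factors bind an A/T-rich element in muscle genes and activate them with partners such as GATA4 and the p300 family. Class IIa HDACs hold MEF2 in a repressed state until calcium-dependent kinases (CaMKII and protein kinase D) phosphorylate them and YWHA adaptor proteins keep them in the cytoplasm, which allows hypertrophic genes to be expressed. SRF binds the CArG box and, depending on its cofactor, drives immediate early genes or genes of the sarcomere and cytoskeleton.

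The promoters of Srf, Mef2a and Hdac5 hold these elements, and the sequences show where. RefSeq promoters (GRCm38.p6, from 250 bases before to 50 bases after a start) were searched on both strands for the exact CArG box and the exact MEF2 site, each a pattern of 10 bases that reads alike on both strands, and neither can overlap the other by its letters. A CArG box was present in 1.63% of 32851 promoters and a MEF2 site in 0.557%. Of the 9 genes, Srf held CArG boxes that begin 82 and 62 bases before its start. Mef2a and Hdac5 held a MEF2 site that begins 2 and 20 bases before theirs, and that of Mef2a runs across the start. All of these lie on the minus strand, and capitals mark the element.
Srf, chr17:46556225-46556254: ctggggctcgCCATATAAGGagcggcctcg
Srf, chr17:46556205-46556234: agcggcctcgCCATAAAAGGaaacattgta
Mef2a, chr7:67372841-67372870: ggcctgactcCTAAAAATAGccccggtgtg
Hdac5, chr11:102230173-102230202: gggtctgagcCTATTTTTAGctcggggtcg

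Gene counts sum over isoforms. In Mef2d, the short alternative exon used in striated muscle, the β-exon, is 21 coding bases at chr3:88161781-88161801 on the plus strand (GENCODE M21, GRCm38) and is present in 1 of 7 annotated transcripts. It is shown because its inclusion cannot be seen in the values below, which report Mef2d as a whole.
Mef2d β-exon: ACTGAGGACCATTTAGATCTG

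Depth was between 116127966 and 160676189 counts per library, and counting error was small for every member except Mef2b. In atria each CUG960 library was shallower than every control, and in ventricles each was deeper. Values below are CPM scaled by TMM, which sets the bulk of genes equal between libraries. Its factors lay between 0.819 and 1.18. Atrial cardiomyocyte markers summed to between 21739 and 28881 CPM in atria and between 77 and 312 CPM in ventricles, and ventricular ones to between 13804 and 17332 CPM in ventricles and between 17.9 and 57.3 CPM in atria, as labelled. The summed level of 11 immediate early genes was 1139 CPM in atria of control V334, between 238 and 271 CPM in atria of the other controls and between 179 and 318 CPM in CUG960 atria. Atrial counts on the lists of genes around the members are therefore also given without V334, as are the named calls lost without it.

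In comparison with MHCrtTA +dox controls, 1 of the 9 genes changed in atria of CUG960 +dox mice and 0 changed in ventricles at an adjusted P value under 0.05 (edgeR quasi-likelihood test). Over all genes tested, 14.6% passed in atria and 9.94% in ventricles. Hdac7 was the gene that passed, and it was lower, as were 6.62% of all genes in atria. At a fold change of at least 1.5 beside the adjusted threshold, 0 of 9 members remained in either chamber, against 5.49% of all genes in atria and 4.75% in ventricles. In ventricles, DESeq2 called 2 members (Hdac7 and Hdac9) and 15% of all genes, and edgeR without the filter on low counts called 1 (Hdac9) and 8.04% of all genes. At an unadjusted P value under 0.05 there were 2 members in each chamber, Hdac7 and Srf in atria and Hdac7 and Hdac9 in ventricles, beside 30.2% and 25.7% of all genes. Among the 8 members with a mean above 20 CPM, Hdac7 included, the median size of the log2 fold change was 0.10 in atria and 0.10 in ventricles, and among 6393 genes above that level it was 0.13 in both.

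**Figure D1:**
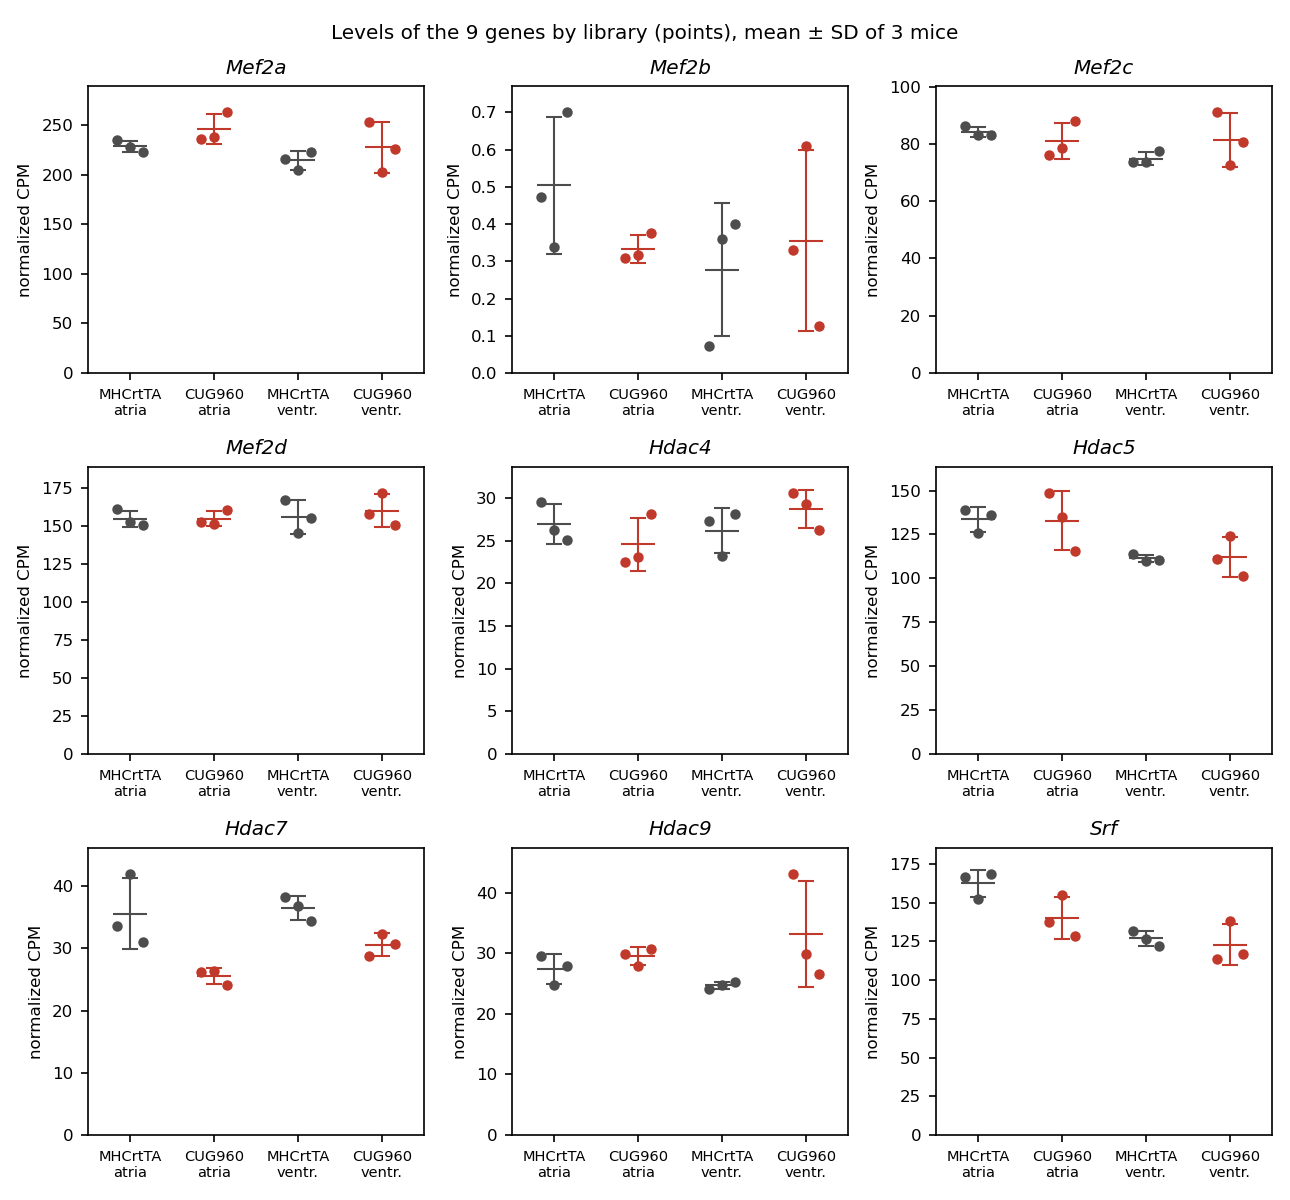
Normalized CPM (y axis) of each of the 9 genes in the 12 libraries, by group (x axis); points are mice, and bars are the mean ± SD of 3 mice. Hdac7 lies between 24.1 and 26.4 CPM in CUG960 atria, below the 31.0 to 41.9 CPM of the control atria, and Hdac9 in CUG960 ventricles is spread from 26.5 to 43.1 CPM.

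Hdac7 is the class IIa HDAC best known from endothelial cells, where it represses MEF2 and keeps vessels intact. In atria it had 33.7, 41.9 and 31.0 CPM in controls V327, V333 and V334, and 26.2, 26.4 and 24.1 CPM in V119, V120 and V123. All CUG960 atria were below all control atria, and V333 was the highest library of all. The level was 25.6 ± 1.3 CPM (SD, n = 3) against 35.5 ± 5.70 CPM, a log2 fold change of −0.48 (SE 0.11, 95% interval −0.73 to −0.23, edgeR adjusted P = 0.0246). The call was lost without any 1 of the CUG960 mice, at an edgeR adjusted P of 0.0697 without V119, 0.0658 without V120 and 0.0603 without V123, with log2 fold changes of −0.50, −0.50 and −0.44. Without V334 it was −0.57 (edgeR adjusted P = 0.0177), and without V333 it was −0.34 (edgeR adjusted P = 0.0458).

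In ventricles, Hdac7 had 38.3, 36.8 and 34.4 CPM in V327, V333 and V334, and 28.7, 32.3 and 30.7 CPM in V119, V120 and V123. The CUG960 ventricles were again all below the controls. The log2 fold change was −0.26 (SE 0.08, 95% interval −0.44 to −0.08), which missed the threshold (edgeR adjusted P = 0.0780). DESeq2 gave an adjusted P of 0.0420 for the same difference. The difference between the chambers in this effect was 0.22 on the log2 scale (ventricles minus atria, 95% interval −0.09 to 0.53, edgeR adjusted P = 0.594).

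Within each chamber, endothelial markers moved with Hdac7 between the genotypes. Of 10 markers, 4 were lower and 0 higher in each chamber past the threshold (Tie1, Cdh5, Pecam1 and Tek in atria, Cdh5, Eng, Pecam1 and Tek in ventricles), with a median log2 fold change of −0.33 in atria and −0.37 in ventricles. Their summed level was between 1224 and 1587 CPM in control atria and between 1034 and 1177 CPM in CUG960 atria, and between 1091 and 1277 CPM in control ventricles and between 885 and 947 CPM in CUG960 ventricles. None of the 10 was at 0 counts. Relative to that sum, Hdac7 had between 24.4 and 26.4 CPM per 1000 endothelial CPM in control atria and between 22.5 and 25.4 in CUG960 atria, and the groups overlapped. In ventricles the ratio was between 27.6 and 33.7 in controls and between 32.1 and 36.5 in CUG960 mice, which overlapped as well. Between the chambers of CUG960 hearts, Hdac7 was higher in ventricles while the marker sum was lower there. In RNA of whole chambers, fewer cells of a type and less RNA per cell cannot be told apart, and the part of endothelial cells in the Hdac7 difference was not tested.

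**Figure D2:**
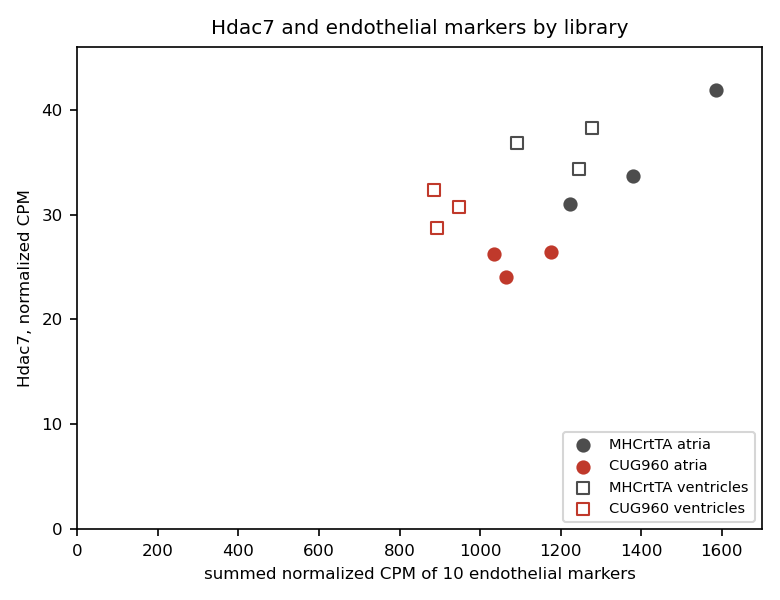
Hdac7 (y axis, normalized CPM) against the summed normalized CPM of 10 endothelial markers (x axis), 1 point per library. In each chamber the CUG960 libraries lie lower on both axes than the control libraries of that chamber.

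Fibroblast markers were lower in atria (3 of 8 past the threshold, summed level 1848 to 2184 against 2177 to 2545 CPM) and in ventricles 0 of 8 passed by edgeR (2 at an unadjusted P value under 0.05, 1 by DESeq2). Smooth muscle markers were lower in ventricles (5 of 7, summed level 281 to 407 against 364 to 448 CPM). In atria 1 of the 7 was higher and 1 lower (Tagln and Smtn), at 353 to 531 against 364 to 488 CPM. Cardiomyocyte markers summed to between 44607 and 46075 CPM in CUG960 atria and between 41984 and 43515 CPM in control atria, and overlapped in ventricles. Neuron and Schwann cell markers were at 9.33 to 11.6 against 12.4 to 14.3 CPM in atria. In ventricles they were at 5.14 to 7.28 against 10.8 to 11.9 CPM. Adipocyte markers overlapped in atria and were at 0.62 to 2.76 against 4.06 to 5.24 CPM in ventricles. Leukocyte markers overlapped in both chambers. The part of any of these cell types in the members' values was not tested. Over the 12 libraries, the 2 genes most like Hdac7 among 13112 were Zdhhc18, a palmitoyltransferase (Pearson r = 0.94 on log2 CPM), and Plscr3, a phospholipid scramblase (r = 0.93), as a description of libraries that share these groups.

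Hdac9 restrains MEF2 in cardiomyocytes, and mice without it are prone to stress-induced hypertrophy. In ventricles it had 24.1, 24.8 and 25.3 CPM in V327, V333 and V334, and 43.1, 29.8 and 26.5 CPM in V119, V120 and V123. Every CUG960 ventricle was above every control, with V119 far above the rest. The log2 fold change was 0.42 (SE 0.16, 95% interval 0.07 to 0.77, edgeR adjusted P = 0.129) and was 0.18 without V119 (edgeR adjusted P = 0.302). It passed with DESeq2 (DESeq2 adjusted P = 0.0497) and without the filter on low counts (edgeR adjusted P = 0.0323).

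In atria, Hdac9 had 29.6, 24.7 and 27.9 CPM in controls and 29.9, 27.9 and 30.8 CPM in V119, V120 and V123. These groups overlapped (log2 fold change 0.10, 95% interval −0.08 to 0.28, edgeR adjusted P = 0.438). The same mouse V119 was not apart in atria.

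Hdac5 was the most abundant class IIa HDAC in every group. It had 139, 126 and 136 CPM in control atria and 149, 135 and 115 CPM in CUG960 atria, and 114, 110 and 111 CPM in control ventricles and 111, 124 and 101 CPM in CUG960 ventricles. CUG960 mice lay on both sides of the controls in each chamber. The log2 fold change was −0.01 in atria (95% interval −0.23 to 0.20) and 0.00 in ventricles (95% interval −0.18 to 0.19). Hdac4, the class IIa HDAC that binds CaMKII directly, lay between 22.5 and 28.1 CPM in CUG960 atria and between 25.0 and 29.5 CPM in control atria, and between 26.2 and 30.6 against 23.1 and 28.1 CPM in ventricles. Its log2 fold changes, −0.14 and 0.13, had opposite signs and 95% intervals that included 0, from −0.37 to 0.09 and from −0.09 to 0.35.

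Srf had 167, 152 and 168 CPM in atria of V327, V333 and V334, and 138, 155 and 128 CPM in atria of V119, V120 and V123. The groups overlapped because V120 was above V333. The log2 fold change was −0.22 (SE 0.08, 95% interval −0.40 to −0.03), which did not hold after adjustment (edgeR adjusted P = 0.108), and it was −0.19 without V334. In ventricles Srf had 132, 127 and 122 CPM in controls and 114, 138 and 117 CPM in CUG960 mice, with V120 the highest library (log2 fold change −0.05, 95% interval −0.25 to 0.15). V120 thus had the highest Srf level of the CUG960 mice in both chambers.

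Among the MEF2 factors, Mef2a had 235, 228 and 223 CPM in control atria and 237, 238 and 263 CPM in CUG960 atria. The groups were just apart, as were those of 35.7% of all genes tested in atria, and 2 of the 9 members (Mef2a and Hdac7). The log2 fold change was 0.10 (95% interval −0.05 to 0.24, edgeR adjusted P = 0.336). In ventricles, where 31.2% of all genes and 2 of the 9 members (Hdac7 and Hdac9) did not overlap, Mef2a had 216, 205 and 223 CPM in controls and 254, 203 and 226 CPM in CUG960 mice and overlapped (log2 fold change 0.08, 95% interval −0.13 to 0.29).

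Mef2d, which mediates stress-dependent remodelling, was the least changed of the factors in gene counts, which do not show its splicing. It had 161, 152 and 151 CPM in control atria and 152, 151 and 160 CPM in CUG960 atria, a log2 fold change of −0.01 with a 95% interval from −0.14 to 0.12. In ventricles it had 167, 145 and 155 CPM in controls and 158, 171 and 150 CPM in CUG960 mice (0.03, 95% interval −0.15 to 0.22). The summed level of the 4 MEF2 factors was 468 ± 12.8 CPM in control atria and 482 ± 26.1 CPM in CUG960 atria, and 445 ± 19.0 and 469 ± 29.7 CPM in ventricles (SD, n = 3).

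Mef2c, required for heart development, had 86.3, 83.2 and 83.1 CPM in control atria and 76.0, 78.7 and 88.0 CPM in CUG960 atria, and 73.6, 73.5 and 77.4 CPM in control ventricles and 91.1, 72.5 and 80.6 CPM in CUG960 ventricles. CUG960 mice spanned the controls in both chambers (log2 fold change −0.06 and 0.12, 95% intervals −0.22 to 0.09 and −0.09 to 0.32). Mef2b, a factor of lymphoid cells, was under 1 CPM in every library. Its log2 fold changes of −0.60 and 0.36 had 95% intervals from −1.29 to 0.09 and from −1.09 to 1.80, both of which included 0, with a spread between mice of 64.6% and 68.1% of the mean (CV) in control and CUG960 ventricles. Its locus overlaps Borcs8 on the same strand.

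**Figure D3:**
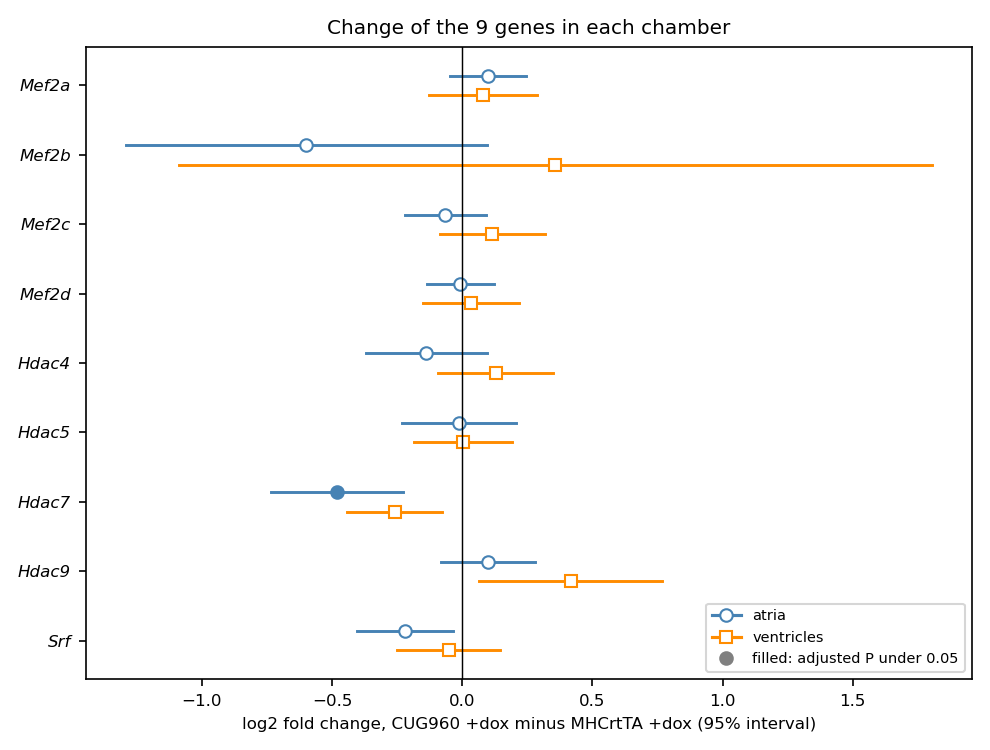
Log2 fold change of CUG960 +dox against MHCrtTA +dox (x axis) with its 95% interval for each gene, circles for atria and squares for ventricles, filled where the adjusted P value was under 0.05. The one filled symbol is Hdac7 in atria at −0.48; the interval of Hdac9 in ventricles runs from 0.07 to 0.77 and that of Mef2b is the widest.

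The chamber did not alter the effect of CUG960 detectably for any member. By edgeR, 0 of 9 passed the test of the interaction of chamber and genotype, also 0 at an unadjusted P value under 0.05 and 0 by DESeq2, against 1.38% of all genes past the adjusted threshold and 12.3% past the unadjusted one. With the mouse as a block, 0 passed as well. The smallest adjusted P was that of Hdac4 (0.528), with a difference of 0.26 on the log2 scale (95% interval −0.06 to 0.59). The intervals of Mef2a, Mef2d and Hdac5 lay between −0.27 and 0.30.

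The chambers themselves were then compared within each genotype. In control hearts, 3 of 9 members differed, all of them lower in ventricles, beside 55.7% of all genes in either direction and 28.3% that were lower. The groups of 4 of the 9 did not overlap, nor did those of 64.7% of all genes. At a fold change of at least 1.5, 0 of 9 members remained in either genotype, beside 34.9% of all genes in control hearts and 33.6% in CUG960 hearts. Srf had 122 to 132 CPM in ventricles and 152 to 168 CPM in atria (log2 difference −0.35, SE 0.07, edgeR adjusted P = 0.0023), and Hdac5 had 110 to 114 against 126 to 139 CPM (−0.25, SE 0.06, edgeR adjusted P = 0.0084). The call of Hdac5 was lost without V327 (edgeR adjusted P = 0.0777) and without V334 (edgeR adjusted P = 0.0582). Mef2c was lower by less, 73.5 to 77.4 against 83.1 to 86.3 CPM (−0.16, SE 0.06, edgeR adjusted P = 0.0402), and did not pass with the mouse as a block (edgeR adjusted P = 0.0983) or without V327, V333 or V334.

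In CUG960 hearts, 1 of 9 members differed between chambers, beside 54.2% of all genes in either direction and 27.5% that were higher, and it was Hdac7, which also was the 1 member without overlap (62.6% of all genes). Hdac7 had 28.7 to 32.3 CPM in ventricles and 24.1 to 26.4 CPM in atria (log2 difference 0.28, SE 0.08, edgeR adjusted P = 0.0137), and this call was lost without V120 (edgeR adjusted P = 0.0838) and without V123 (edgeR adjusted P = 0.121). Hdac4 passed only without V123 (0.40, edgeR adjusted P = 0.0098). In control hearts the chamber difference of Hdac7 was 0.05 (95% interval −0.21 to 0.31). Hdac5 was lower in ventricles by −0.23 (edgeR adjusted P = 0.0996), and passed with the mouse as a block (edgeR adjusted P = 0.0435). These chamber differences depend on TMM. Without its factors the median of all genes moved to −0.49 in control hearts and −0.40 in CUG960 hearts, the log2 difference of every member was then below 0 in both genotypes, and Hdac7 in CUG960 hearts turned to −0.12 (edgeR adjusted P = 0.209).

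Levels of different genes were compared per kilobase of merged exon. Srf was the most abundant member in each group, at 56.2 ± 3.06 CPM per kb in control atria and 48.5 ± 4.62 in CUG960 atria, and at 43.9 ± 1.70 and 42.5 ± 4.63 in ventricles (SD, n = 3). Mef2d followed at 25.8 to 26.7 CPM per kb over the group means, then Mef2a at 14.6 to 16.8 and Hdac5 at 12.7 to 15.2, which overlapped in every group but control ventricles. Mef2c and Hdac7 were next, at 4.76 to 5.36 and 3.79 to 5.40 CPM per kb. By merged exon their order depended on the group. Hdac7 was below Mef2c in CUG960 atria and above it in control ventricles. Hdac7 and Mef2c overlapped in control atria and CUG960 ventricles. With the longest transcript as the length, Mef2c was above Hdac7 without overlap in every group. In control ventricles Mef2c was then at 11.7 to 12.3 and Hdac7 at 6.64 to 7.39 CPM per kb. By that length Mef2a was also above Hdac5 without overlap in every group. Hdac9 and Hdac4 lay between 1.55 and 2.26 CPM per kb and overlapped in every group but CUG960 atria, and Mef2b was last, at 0.198 to 0.359.

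Within the families, Mef2d made up between 53.9% and 57.0% of the MEF2 factors per length by group mean, Mef2a between 32.1% and 34.9%, and Mef2c between 10.5% and 11.4%. The share of Mef2a in atria was 34.6% to 35.5% in CUG960 mice and 32.9% to 33.4% in controls, and did not overlap. Among class IIa HDACs, Hdac5 made up between 59.2% and 67.1%. The share of Hdac7 was 21.9 ± 3.59% in control atria and 16.9 ± 0.758% in CUG960 atria, and 25.2 ± 1.02% and 21.3 ± 1.90% in ventricles, with no overlap in either chamber. Which MEF2 factor leads depends on the length used: with the longest transcript in place of all exons, Mef2a made up between 48.6% and 51.5% and Mef2d between 33.2% and 36.1%.

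**Figure D4:**
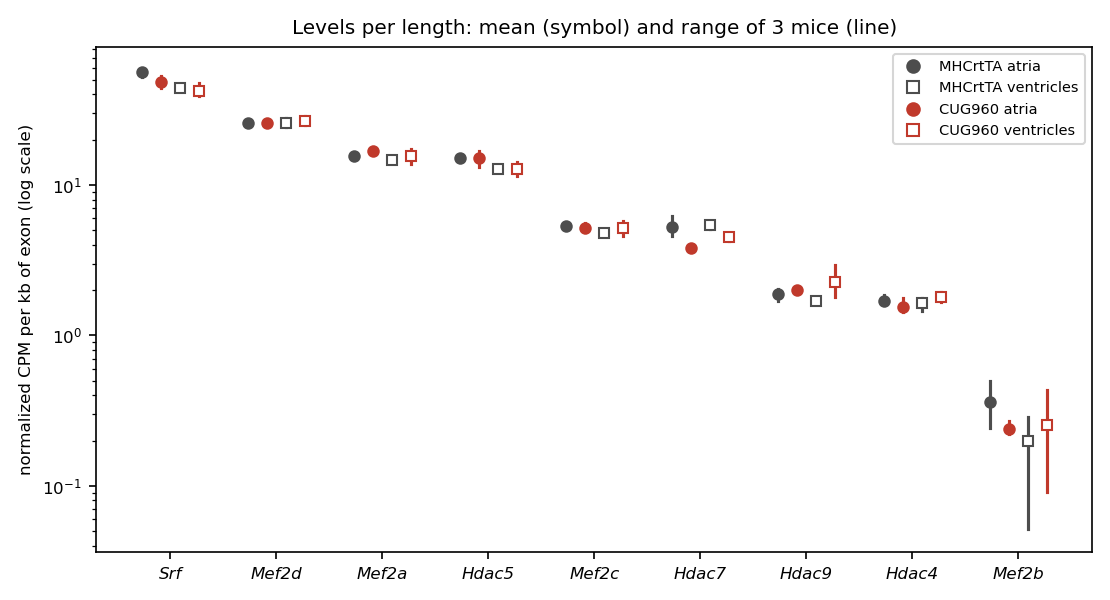
Normalized CPM per kilobase of merged exon (y axis, log scale) for the 9 genes (x axis), with the mean as a symbol and the range of 3 mice as a line in each of the 4 groups. Srf lies above 39 CPM per kb in every group, and Mef2b lies below 0.5.

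The other genes of the circuit were described by 8 lists, each set beside the 14.6% (atria) and 9.94% (ventricles) of all genes that passed and the median log2 fold change of all genes, −0.01 in both chambers. Of 9 SRF cofactors, 2 were higher and 1 lower in atria (1 and 1 without V334) and 2 higher and 2 lower in ventricles. Fhl2, a LIM-only protein that binds SRF and antagonises it, rose in atria from 72.6, 67.4 and 73.1 CPM in controls to 153, 143 and 160 CPM in CUG960 mice, a log2 fold change of 1.09 (SE 0.07, edgeR adjusted P = 7.62e-05). In ventricles it was at 1141, 1134 and 966 CPM in controls and 1102, 1248 and 1262 CPM in CUG960 mice, and the groups overlapped.

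Its promoters on the minus strand of chromosome 1 hold the CArG box as well, 96 and 31 bases before their starts.
Fhl2, chr1:43196838-43196867: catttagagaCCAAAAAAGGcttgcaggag
Fhl2, chr1:43163973-43164002: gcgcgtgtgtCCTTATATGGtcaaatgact

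Hopx, which inhibits SRF without binding DNA, was higher in atria (0.27, edgeR adjusted P = 0.0392), and its promoter holds a CArG box on the minus strand, 83 bases before the start.
Hopx, chr5:77115187-77115216: taacccgagtCCAAATAAGGaagctgggga

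Elk3, an SRF partner of the ternary complex family that endothelial cells also express, was lower by the same amount in atria and ventricles (−0.46 in each, edgeR adjusted P = 0.0163 and 0.0126). In ventricles, Elk1 and the coactivator Myocd were higher (0.48 and 0.61, edgeR adjusted P = 0.0108 and 0.0276). Abra, an actin-binding activator of SRF signalling, had 23.1 to 30.1 CPM in CUG960 ventricles and 42.7 to 48.7 CPM in controls (−0.72, edgeR adjusted P = 0.0046).

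**Figure D5:**
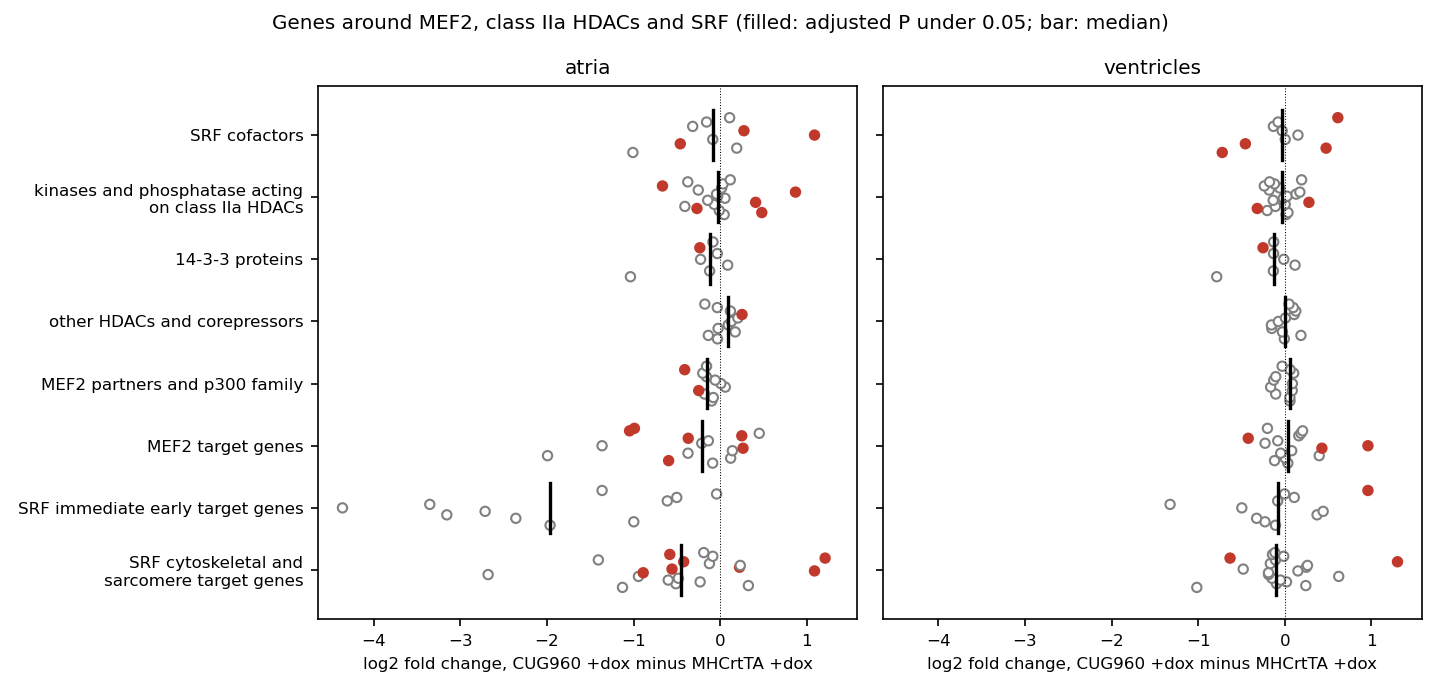
Log2 fold changes (x axis) in atria and ventricles of the genes on 8 lists (rows), filled where the adjusted P value was under 0.05, with the list median as a bar. Medians lie near 0 except for immediate early genes in atria at −1.96, none of which is filled, and cytoskeletal and sarcomere genes in atria at −0.45.

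Of 18 kinases, phosphatases and their regulators that set where class IIa HDACs reside, 3 were higher and 2 lower in atria (3 and 1 without V334). In ventricles 1 was higher and 1 lower. The list medians were −0.02 in atria and −0.04 in ventricles. Prkd1, a protein kinase D, which phosphorylates class IIa HDACs, had 5.08, 4.78 and 4.95 CPM in CUG960 atria and 2.31, 2.99 and 2.77 CPM in controls (0.87, SE 0.13, edgeR adjusted P = 0.0040). Camk2b had 29.7, 30.2 and 32.2 CPM in CUG960 atria and 21.2, 22.4 and 22.1 CPM in controls (0.48, SE 0.06, edgeR adjusted P = 0.0024). Both were clear of their controls in atria and overlapped with them in ventricles. The interaction of chamber and genotype passed for Camk2b (edgeR adjusted P = 0.0457) and not for Prkd1 (edgeR adjusted P = 0.0804). Prkd2 and Prkd3 passed in neither chamber (−0.25 and 0.02 in atria, edgeR adjusted P = 0.284 and 0.883). Camk2a and Camk2d also passed in neither, with Camk2d at −0.01 in atria and −0.20 in ventricles (edgeR adjusted P = 0.942 and 0.131).

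Calcineurin removes the phosphates from NFAT factors that work with MEF2. Ppp3ca, a catalytic subunit of it, rose in atria and in ventricles (0.41 and 0.28, edgeR adjusted P = 0.0044 and 0.0363). Ppp3cb, another catalytic subunit, passed in neither (−0.14 and −0.13, edgeR adjusted P = 0.148 and 0.315). Rcan1, a regulator on the list, was lower in atria (−0.67, edgeR adjusted P = 0.0316). Camk2g fell in both chambers (−0.27 and −0.32, edgeR adjusted P = 0.0290 and 0.0295). Of the 7 YWHA adaptors, Ywhaq was lower in both chambers (−0.23 and −0.25, edgeR adjusted P = 0.0280 and 0.0429), and the list medians were −0.12 and −0.13. Of 11 other HDACs and corepressors, 1 was higher in atria, the cytoplasmic deacetylase Hdac6 (0.25, edgeR adjusted P = 0.0298). In ventricles 0 of them passed by edgeR (1 at an unadjusted P value under 0.05, 0 by DESeq2). Without V334, 0 of the adaptors and 0 of these HDACs and corepressors passed in atria.

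Of 12 MEF2 partners and genes of the p300 family, 11 were tested, and 2 were lower in atria: Tbx5, with 186 to 206 CPM against 231 to 280 CPM (−0.41, edgeR adjusted P = 0.0140), and Gata4, with 104 to 106 CPM against 120 to 130 CPM (−0.25, edgeR adjusted P = 0.0233). Without V334, 0 were higher and 1 was lower in atria. In ventricles 0 passed by edgeR (0 at an unadjusted P value under 0.05, 0 by DESeq2), with Tbx5 at 0.06 and Gata4 at 0.09. The interaction of chamber and genotype passed for neither Tbx5 nor Gata4 (edgeR adjusted P = 0.120 and 0.0580).

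Of 15 MEF2 target genes, 2 were higher and 4 lower in atria (median −0.21), and 2 were higher and 1 lower in ventricles (median 0.03). Without V334 the atrial list had 0 higher and 3 lower and a median of −0.13. Xirp2, an actin-binding protein of the intercalated disc, had 199, 240 and 251 CPM in CUG960 atria and 467, 446 and 450 CPM in controls (−0.99, SE 0.09, edgeR adjusted P = 5.16e-04). Ckm, muscle creatine kinase, was lower in atria (−0.60, edgeR adjusted P = 0.0029), and Slc2a4, the insulin-responsive glucose transporter, was lower in both chambers (−0.37 and −0.42, edgeR adjusted P = 0.0043 and 0.0100). Myoz2, a Z-disc protein that binds calcineurin, was higher in both (0.26 and 0.43, edgeR adjusted P = 0.0267 and 0.0346). The list thus held members that moved in either direction.

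Of the 11 immediate early targets of SRF, 0 passed in atria by edgeR (6 at an unadjusted P value under 0.05, 0 by DESeq2), and their median log2 fold change was −1.96. Fos had 112 CPM in control V334 and between 1.56 and 2.92 CPM in the other 5 atria, and Egr1 had 131 CPM against 7.92 to 15.4 CPM. Without V334 the median was −0.10 and again 0 passed. The Srf level in atria of V334, 168 CPM, was not apart from that of V327, at 167 CPM. In ventricles 1 gene passed, Nr4a1, an orphan nuclear receptor that both MEF2 and SRF regulate, with 14.8, 11.1 and 7.94 CPM in CUG960 mice and 5.05, 4.62 and 7.64 CPM in controls (0.96, edgeR adjusted P = 0.0367).

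Of 20 cytoskeletal and sarcomere targets of SRF, 3 were higher and 4 lower in atria (median −0.45), and 1 was higher and 1 lower in ventricles (median −0.10). Without V334 the atrial list had 1 higher and 4 lower and a median of −0.31. Fhl2, named above as an SRF cofactor, is also on this list, so its rise in atria is counted in both. Nr4a1 is likewise on both the MEF2 target and the immediate early target list. Vinculin (Vcl), which anchors actin at adhesion sites, had 118, 135 and 137 CPM in CUG960 atria and 182, 197 and 202 CPM in controls (−0.58, edgeR adjusted P = 0.0026). Filamin A (Flna), an actin crosslinker that endothelial and smooth muscle cells also express, had 85.6 to 92.8 CPM in CUG960 atria and 122 to 136 CPM in controls (−0.56, edgeR adjusted P = 0.0014). Actc1, Acta1, Actg1 and Myl9 on this list hold a CArG box in a promoter and passed in neither chamber. The same was true of Egr2 and Myom1 on other lists. Fhl1, which was lower in atria (−0.89, edgeR adjusted P = 0.0127), holds a box as well. The Vcl promoter holds a CArG box on the plus strand, 227 bases before its start.
Vcl, chr14:20929161-20929190: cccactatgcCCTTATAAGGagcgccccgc

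Nppa and Tagln moved in opposite directions in the chambers. Nppa, atrial natriuretic peptide, was lower in atria (11432 to 12433 against 14616 to 16556 CPM, −0.42, edgeR adjusted P = 0.0083) and higher in ventricles (86.7 to 225 against 48.4 to 84.6 CPM, 1.3, edgeR adjusted P = 0.0314), where its level was far below that of atria. The 5 atrial cardiomyocyte markers, of which Nppa is 1, summed to between 91.5 and 312 CPM in CUG960 ventricles and between 77 and 153 CPM in controls, and the part of atrial tissue in this difference was not tested. Tagln, a smooth muscle actin-binding protein, was higher in atria (34.6 to 73.5 against 17.0 to 32.4 CPM, 1.21, edgeR adjusted P = 0.0364) and lower in ventricles (21.6 to 30.6 against 30.6 to 46.6 CPM, −0.63, edgeR adjusted P = 0.0426). Tagln is itself 1 of the 7 smooth muscle markers and 1 of the 5 of them that passed in ventricles. The difference between the chambers passed the interaction test for both genes (edgeR adjusted P = 0.0494 for Nppa and 0.0445 for Tagln).

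Of the 19 list genes named by rank of adjusted P that passed in atria, 9 lost the call in at least 1 fit that left out a mouse. These were Camk2g, Elk3, Gata4, Hdac6, Hopx, Myoz2, Tagln, Tbx5 and Ywhaq. Between 2 (without V123) and 8 of them (without V119, V120 or V333) were lost at a time. Without V334, 7 were lost: Camk2g, Gata4, Hdac6, Hopx, Myoz2, Tagln and Ywhaq. Of the 12 in ventricles, Abra and Elk1 held without each mouse, and between 5 (without V333 or V334) and 10 (without V327) were lost at a time. With all 12 libraries in a single fit, Hopx, Myoz2 and Nppa lost the call in atria (edgeR adjusted P = 0.348 for Nppa) and Abra, Nr4a1 and Tagln in ventricles (edgeR adjusted P = 0.0987 for Abra). Without TMM factors, Camk2g, Ywhaq and Gata4 lost it in atria and Camk2g, Ywhaq and Tagln in ventricles.

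Across all genes with a CArG box in a RefSeq promoter, 21 of 197 tested were higher and 13 lower in atria, or 17.3%, beside 15.3% of 12056 tested genes with any promoter in the table. In ventricles 17 of 188 were higher and 6 lower, or 12.2% beside 10.5%. For the MEF2 site, 12 of 79 were higher and 7 lower in atria (24.1%), and 11 of 83 were higher and 7 lower in ventricles (21.7%). These counts were made after the data were seen and describe letters in a window, with genes passing in either direction. The medians of both groups of genes lay between −0.06 and 0.00 on the log2 scale.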

How the data were processed

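RNA from atria and ventricles was poly(A) selected and sequenced with a stranded protocol. Per the labels and the study's methods, the authors aligned reads to mm10 (GRCm38) and deposited estimated counts per gene from RSEM 1.3.1, not scaled for library size, as whole numbers (0 were not). Counts of 51826 entries, 92 of them with a repeated symbol, were used as deposited.

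Here each comparison was fitted across all genes with edgeR 4.0.16 (filterByExpr, TMM, glmQLFit, glmQLFTest, Benjamini-Hochberg) in R 4.3.3, and a gene passed where its adjusted P value was below 0.05, whatever its fold change. Genotypes were compared within 6 libraries of a chamber, chambers within 6 libraries of a genotype, and the interaction over 12 libraries. SE and 95% intervals are from the fit. CPM uses TMM factors over the 12 libraries. Exact permutation of 3 against 3 mice cannot give p under 0.1 and was not used. Lengths and coordinates are from GENCODE M21, promoters from RefSeq.

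Alternatives were the mouse as block, 1 fit over all 12 libraries, DESeq2 1.42.0, RLE or upper-quartile scaling, a minimum of 10 counts per library or no filter, a 1.5-fold limit, leaving out each mouse and, added after seeing the data, no TMM factors. Both chambers of a mouse carry its number: deviations from group means correlated at r = 0.058 to 0.35 within mice (6 pairs) and −0.40 to 0.32 between mice (30 pairs). All replicate pairs differed beyond counting noise. No member shared a 75-base stretch of transcript with another. The steps were tested on simulated data.

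Named genes were all 9 members, at most the 4 genes with the smallest adjusted P value per list and chamber among those that passed, and the 2 genes most like a member that passed (Pearson r, mean of at least 1 CPM). Fos and Egr1 were added to these once their values had been seen. So were list genes given beside a named gene, such as Prkd2, Ppp3cb and Fhl1. The members and lists were chosen with earlier results of these data known.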

Additional observations from a re-analysis of the deposited data

Results flagged for a closer look

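Fhl2, Tagln, Nppa and Camk2b, genes around the members, had CUG960 effects that differed between chambers by the test of the interaction over all 12 libraries (edgeR, ventricular minus atrial log2 fold change), where 1.38% of all genes passed. Fhl2 differed by −0.94 (adjusted P = 0.0023) and passed in 13 of 13 alternatives. Tagln differed by −1.85 (edgeR adjusted P = 0.0445) and passed in 8 of 13. Nppa differed by 1.72 (edgeR adjusted P = 0.0494) and passed in 8 of 13. Camk2b differed by −0.45 (edgeR adjusted P = 0.0457) and passed in 4 of 13, and not with the mouse as a block (edgeR adjusted P = 0.0824). No other named list gene passed this interaction test, and none of the 9 members met a rule for a closer look.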

How the results depend on the processing

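Counts of genes that passed were 2573 in atria, 1680 in ventricles, 253 for the interaction, and 9726 and 9517 for the chambers in control and CUG960 hearts. With a fold change of at least 1.5 they were 969, 804, 213, 6098 and 5900, and the members that passed became 0 in atria and 0 and 0 for the chambers. DESeq2 called 2531 genes and 2 members in ventricles and 615 genes for the interaction, and no filter on low counts gave 1 member in ventricles. Leaving out 1 mouse gave 1235 to 2584 genes and 0 to 1 members in atria, 784 to 1347 genes in ventricles and 74 to 131 for the interaction, and 1 to 2 members in control and 0 to 1 in CUG960 chambers.

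Without TMM factors, 8 and 5 members differed between chambers in control and CUG960 hearts, and Mef2d (−0.43 and −0.33), Hdac7 (−0.41 and −0.12) and Mef2c (−0.37 in CUG960 hearts) changed direction, as did Hdac4 (−0.15), Hdac9 (−0.21) and Mef2b (−0.27) in CUG960 hearts, which passed with neither scaling. The share of passing genes that were higher went from 54.6% to 66.0% in atria, from 57.7% to 81.6% in ventricles, from 50.2% to 65.5% for the interaction, and from 49.3% to 18.2% and from 50.8% to 20.3% for the chambers in control and CUG960 hearts. In CUG960 hearts, 2 members differed between chambers with the mouse as a block and 2 with all 12 libraries in the fit, Hdac5 among them each time. The block changed no other call of a member than those of Mef2c and Hdac5 given above.

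Of 546 member values under alternatives, 46 had the other sign. Hdac7 in atria passed in 10 of 13 alternatives. On the lists the number that passed ranged in atria from 3 to 6 (5 as reported) for kinases and phosphatases, from 3 to 8 (6) for MEF2 targets, from 1 to 5 (3) for SRF cofactors, from 4 to 10 (7) for cytoskeletal and sarcomere genes and from 0 to 5 (0) for immediate early genes. In ventricles it ranged from 0 to 2 (2), 0 to 4 (3), 2 to 4 (4) and 0 to 5 (2) for the first 4 of these. Precision rests on 3 mice per group.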
